A study of Danio rerio with 9 samples.

Results

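Cortisol, the main glucocorticoid of fish, acts through the glucocorticoid receptor, which enters the nucleus when it binds the hormone and switches on target genes. Together with glucagon and a fall in insulin, it moves a fasting animal from storing nutrients to making glucose, largely in the liver. Larvae at this age are finishing their yolk, and both hormone levels and metabolism follow the day. The 10 genes described here were fixed by name, with earlier results of these data known. They are the receptor itself (nr3c1), 3 genes known to be induced by it in vertebrates (fkbp5, tsc22d3 and klf9), 2 metabolic enzymes (tat and pck1), 2 insulin-like growth factor binding proteins raised in fasting (igfbp1a and igfbp1b), an enzyme that inactivates cortisol (hsd11b2) and the precursor of corticotropin (pomca).

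All probes that carried a RefSeq accession of these genes were taken, which gave 25 probes among 43603 on the array. Over the whole array 26094 probes were paired with a symbol, for 13443 genes. tat had 5 probes, tsc22d3, igfbp1a and nr3c1 had 3 each, fkbp5, klf9, pck1, igfbp1b and hsd11b2 had 2 each and pomca had 1. Probes of a gene read the same RNA and are not replicates of a condition.

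RNA came from the whole body of zebrafish larvae at 6 dpf on 9 1-colour arrays. The genotypes were TKO (zPer2, zCry1a and zCry2a knocked out), DKO (zPer2 and zCry1a knocked out) and WT, each kept in constant darkness from fertilization and then left in darkness or given 3-h light or 12-h light at 6 dpf. The knockouts carry nonsense mutations made with TALEN for zPer2 and zCry1a and with CRISPR/Cas9 for zCry2a. The study states that DKO larvae were collected 12 h after light onset, so that those given 3-h light had returned to darkness, and for WT and TKO larvae on the arrays the time is not given in the sources used here. There was 1 array per genotype and lighting, and the arrays of the other factor stand in for replicates in every test below. How many larvae were pooled on an array is not given in the sources used here. The p-values rest on the spread of these 9 arrays around the fitted model. With terms for genotype and lighting, that spread also holds any difference in light response between the genotypes.

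Each genotype was on a slide of its own, so that genotype and slide cannot be told apart, and no position held more than 1 lighting (darkness at position 1, 3-h light at 2, 12-h light at 3 for TKO and WT and at 4 for DKO), so that lighting and position cannot be told apart. Signals well above background made up 85.9% to 87.5% of spots on the dark arrays, 86.4% to 89.3% on the 3-h and 88.6% to 89.8% on the 12-h light arrays. All 25 probes were well above background on all 9 arrays. The TKO dark array stood apart, with a loading of 0.813 on a first component that held 46.6% of the variance over 36499 probes, where the other arrays had loadings of -0.365 to 0.172. Where leaving it out changed a call or moved a called value or a count by over 1.5 times, the value without it is given as well. Of the knocked-out genes, cry1a was lower than in WT larvae on every knockout array, by 0.01 to 1.42 on the log2 scale. The 0.01 (A_15_P628261, TKO larvae at 3-h light) is within the SD between spots for a ratio, 0.199. The other cry1a probe was at -0.32 there. The single probe of zCry2a, named cry3a in the gene table, was 0.72 to 0.99 lower in TKO larvae and 0.07 to 0.47 lower in DKO larvae, and per2 transcript was not lower throughout.

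Values are log2 signals relative to the 75th percentile of the array, and a difference of 1 is 2-fold. In whole larvae, fewer cells of a type and less RNA per cell cannot be told apart. In the limma model with terms for genotype and lighting, 19 of the 25 probes were higher at 12-h light than in darkness, against 14.5% of all 39140 probes tested, and 1 was lower, against 9.67%. The median difference was 1.25 over the 25 probes and 0.09 over all probes. At 3-h light, 12 probes were higher than in darkness, against 4.76% of all probes, and 0 were lower, against 3.65%, with a median of 0.59 over the 25 probes and 0.10 over all. Directly between the light exposures, 11 probes were higher at 12-h light than at 3-h light, against 0.353% of all probes. Counted by gene at its brightest probe, 7 of the 10 genes were higher and 1 lower at 12-h light than in darkness. Of all named genes, 13.2% were higher and 12.7% lower. The median was 0.93 over the 10 genes and 0.04 over all named genes. At 3-h light 4 genes were higher than in darkness (median 0.40), and 4 were higher at 12-h than at 3-h light (median 0.34). The comparisons with darkness share the dark arrays, and the last comparison shares its arrays with the other two. Without the TKO dark array, 21, 14 and 15 probes were called in the same order of comparisons. The shares of all probes above are those of the fit with all 9 arrays. The genes were chosen with earlier results of these data known. Of them, tat, pck1 and igfbp1b stand in a list that the study drew from the DKO arrays. The shares of all probes are given for scale, and the counts beside them are not independent evidence.

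**Figure D1:**
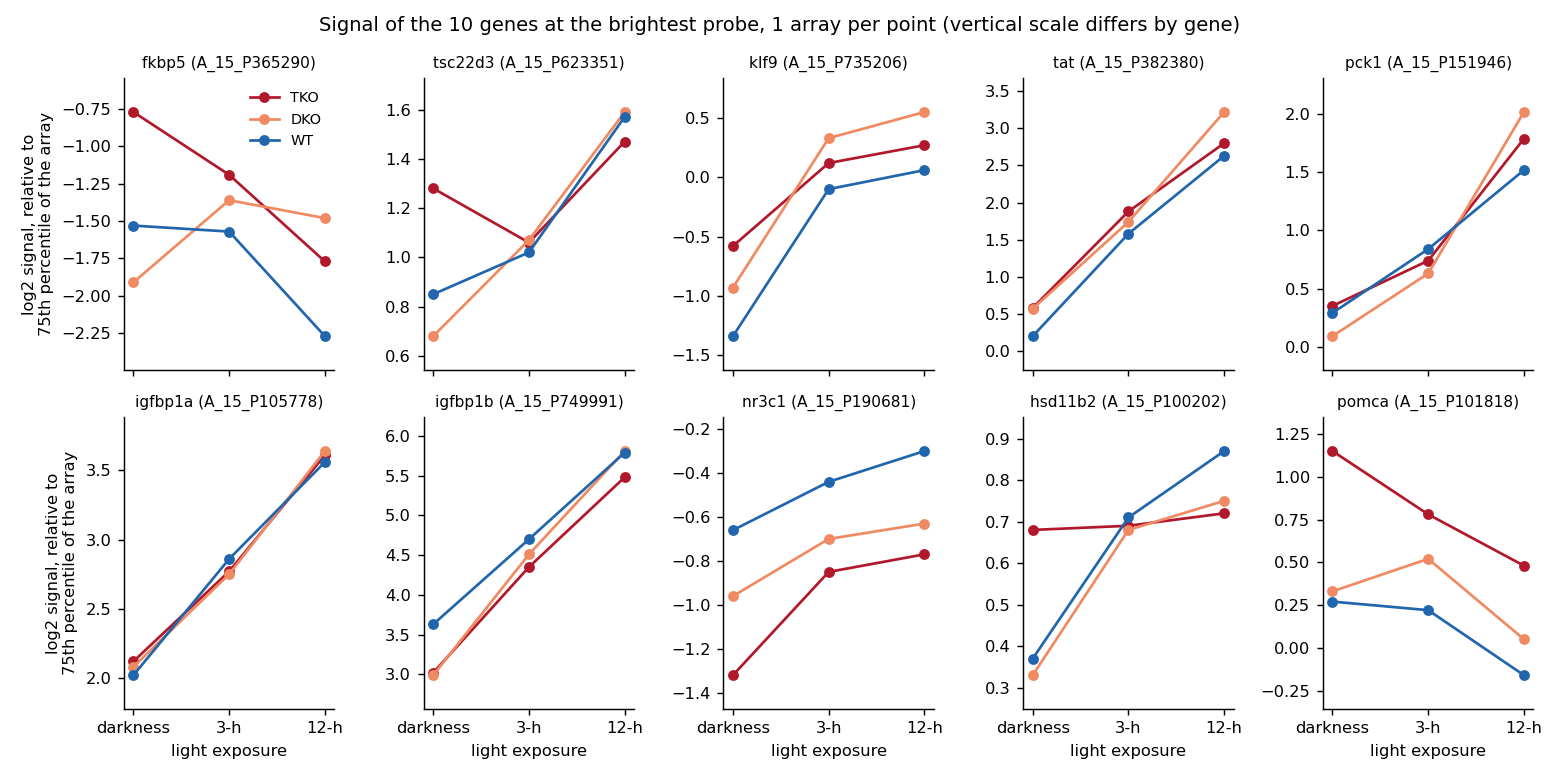
Log2 signal relative to the 75th percentile of the array (vertical axis, a scale for each gene) against light exposure (horizontal axis) for the brightest probe of each gene, 1 array per point, with a line for each of TKO, DKO and WT. In each genotype tat, pck1, igfbp1a, igfbp1b, klf9, nr3c1 and hsd11b2 were lowest in darkness and highest at 12-h light. hsd11b2 was nearly level in TKO larvae, at 0.68, 0.69 and 0.72.

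The largest differences among the enzymes were those of tat, tyrosine aminotransferase, which starts the breakdown of tyrosine in the liver and is a classic gene induced by glucocorticoids. At its brightest probe (A_15_P382380), TKO larvae gave 0.58 in darkness, 1.88 with 3-h and 2.80 with 12-h light. In the same order, the signal was 0.57, 1.74 and 3.22 in DKO larvae, and 0.20, 1.58 and 2.63 in WT larvae. All 3 dark arrays were below all 3-h light arrays, which in turn were below all 12-h light arrays. The difference between 12-h light and darkness was 2.43 ± 0.12 (SE; 5.39-fold, adjusted p = 0.000338). The 5 probes ranged from 2.31 to 2.62, with adjusted p-values of 9.84e-05 to 0.000338. Between 3-h light and darkness they differed by 1.28 to 1.45 (adjusted p = 0.0117 at each), and between 12-h and 3-h light by 1.02 to 1.17 (adjusted p = 0.00704 to 0.016). At the brightest probe the first of these calls was lost without the WT dark array (1.26, adjusted p = 0.0509), the WT 3-h light array (1.23, adjusted p = 0.0954) or the TKO 3-h light array (1.22, adjusted p = 0.0749), and the second without any 1 of the 6 light arrays (1.01 to 1.26). These losses were not particular to tat. For the first comparison 0 of all probes were called without the WT or the TKO 3-h light array, and 38 without the WT dark array.

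pck1 encodes the cytosolic phosphoenolpyruvate carboxykinase, which commits carbon to glucose synthesis. Its probe A_15_P151946 gave 0.35 in darkness, 0.74 with 3-h and 1.79 with 12-h light in TKO larvae. In that order the values were 0.09, 0.63 and 2.02 in DKO larvae, and 0.29, 0.84 and 1.52 in WT larvae. Again the lightings did not overlap, but in TKO and DKO larvae most of the gain lay between 3-h and 12-h light. In WT larvae the log2 ratio at 3-h light was 44.5% of that at 12-h light, and 52.6% at the other probe. 12-h light exceeded darkness by 1.53 ± 0.15 (2.89-fold, adjusted p = 0.00226), and it exceeded 3-h light by 1.04 (adjusted p = 0.048). The difference between 3-h light and darkness was 0.49 (adjusted p = 0.0781), with a 95% interval of 0.14 to 0.84. The difference between 12-h and 3-h light was called in 1 of the 9 fits that left out an array, the one without the TKO dark array, with values of 0.86 to 1.21. The other pck1 probe gave 1.52 for 12-h light against darkness (adjusted p = 0.00199), and 0.96 against 3-h light (adjusted p = 0.0524). The latter was called without the TKO dark array (0.96, adjusted p = 0.0483).

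igfbp1b and igfbp1a encode binding proteins that hold insulin-like growth factors in the circulation and restrain growth when food or oxygen is short. At igfbp1b (A_15_P749991) the TKO signal was 3.02 in darkness, 4.35 with 3-h and 5.48 with 12-h light. In that order it was 2.99, 4.51 and 5.81 in DKO larvae, and 3.63, 4.70 and 5.79 in WT larvae. In darkness the knockout arrays lay below the WT array, by 0.61 for TKO and 0.64 for DKO, while at 12-h light DKO exceeded WT by 0.02. Over the genotypes, 12-h light exceeded darkness by 2.48 ± 0.13 (5.58-fold, adjusted p = 0.0004), and the other probe gave 2.42.

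For igfbp1a (A_15_P105778) the genotypes nearly coincided. The signal was 2.12, 2.77 and 3.61 in TKO larvae, 2.08, 2.75 and 3.64 in DKO larvae, and 2.02, 2.86 and 3.56 in WT larvae, in the order darkness, 3-h light and 12-h light. 12-h light exceeded darkness by 1.53 ± 0.08 (2.89-fold, adjusted p = 0.0004), and the 3 probes ranged from 1.53 to 1.58. At 3-h light the difference from darkness was 0.72 to 0.75 at the 3 probes of igfbp1a and 1.30 and 1.34 at those of igfbp1b, all called. The 12-h light arrays exceeded the 3-h light arrays by 0.80 to 0.83 for igfbp1a and by 1.09 and 1.18 for igfbp1b, all called as well. As for tat, the first set of calls was lost at the brightest probes without the WT 3-h light array (adjusted p = 0.0954 for both genes) or the TKO 3-h light array (adjusted p = 0.0749 for both), and for igfbp1a also without the WT dark array (adjusted p = 0.0528). The second set was lost there without any 1 of the light arrays, at 0.78 to 0.86 for igfbp1a and 1.06 to 1.28 for igfbp1b. At 3-h light against darkness, 0 of all probes were called without the WT or the TKO 3-h light array.

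tat, pck1 and igfbp1b stand in the study's own list of genes induced in DKO larvae at 12-h light, which was drawn from these DKO arrays, so that their rise in DKO larvae is not independent evidence. In the arrays which that list did not use, 12-h light over darkness was 2.17 to 2.54 (log2) for tat in TKO larvae and 2.42 to 2.68 in WT larvae. For pck1 it was 1.44 and 1.50 in TKO larvae and 1.23 and 1.22 in WT larvae. For igfbp1b it was 2.46 and 2.44 in TKO larvae and 2.16 and 2.02 in WT larvae. These are ratios of single arrays with no replicate check.

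**Figure D2:**
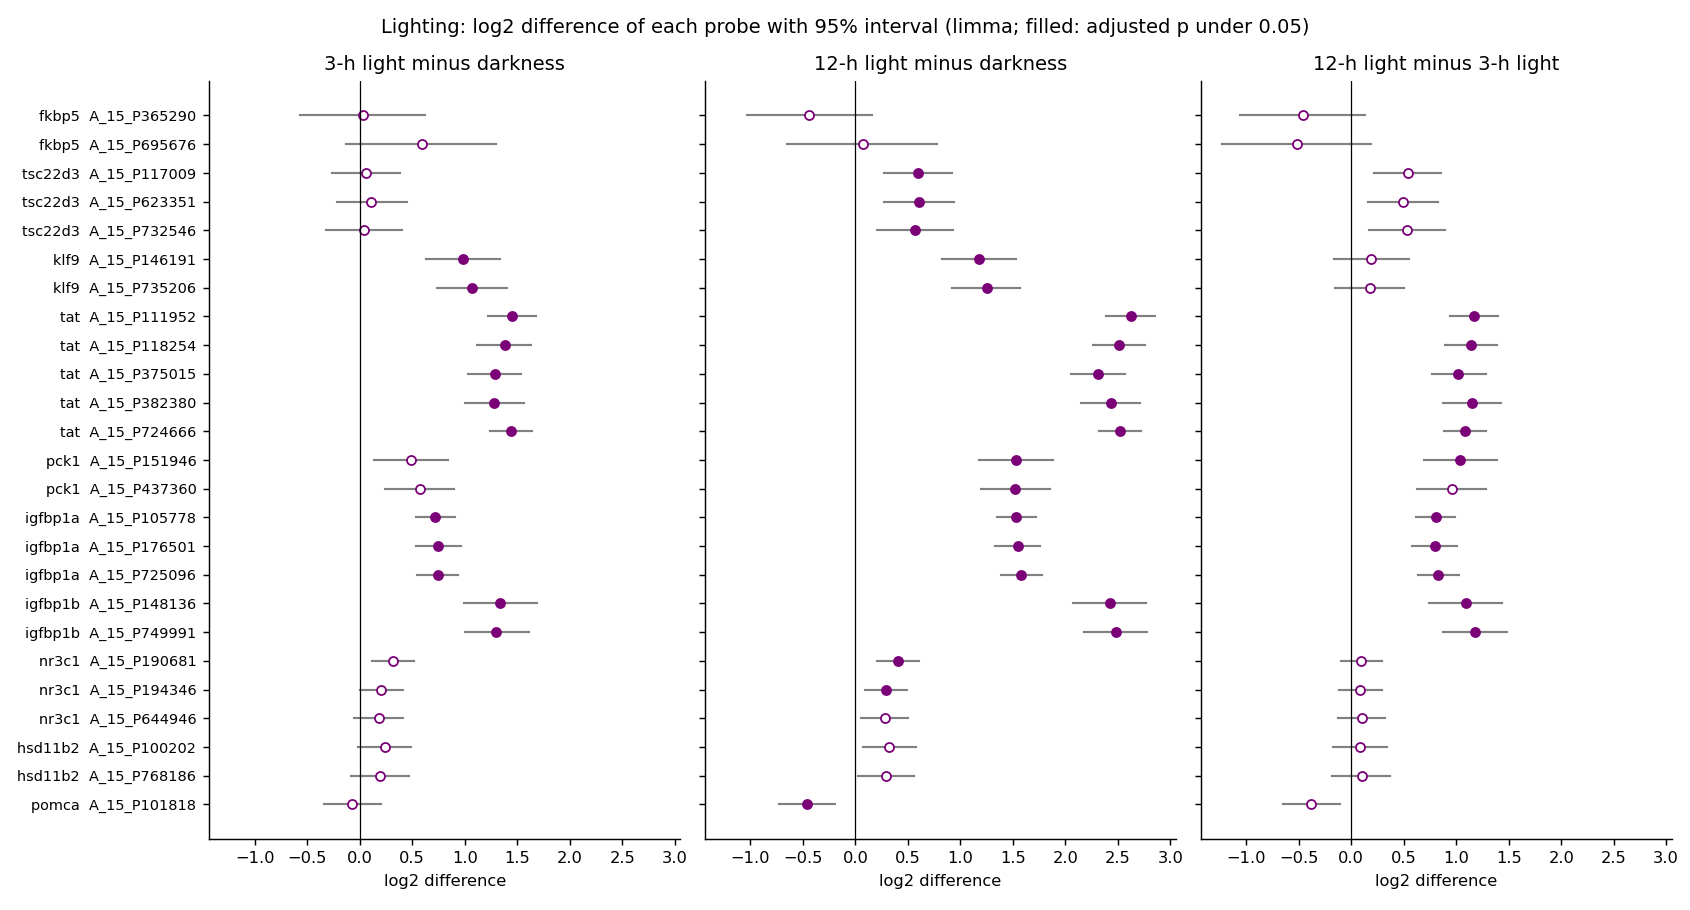
Differences between lightings in log2 (horizontal axes) for the 25 probes (rows), from limma over 9 arrays, with 95% intervals as bars and filled points where the adjusted p was under 0.05. The probes of tat and igfbp1b lie near 2.4 for 12-h light minus darkness, those of klf9 between 0.98 and 1.25 for either light exposure minus darkness, and at 0.18 and 0.19 for 12-h minus 3-h light.

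Among klf9, tsc22d3 and fkbp5, klf9 differed most. It encodes a zinc finger transcription factor that mediates part of the glucocorticoid response and also oscillates with the clock in several tissues. At A_15_P735206 TKO larvae gave -0.58 in darkness, 0.12 with 3-h and 0.27 with 12-h light. The signal was likewise -0.93, 0.33 and 0.55 in DKO larvae, and -1.34, -0.10 and 0.06 in WT larvae. Every light array was above every dark array, but the 3-h and 12-h light arrays overlapped across genotypes. 12-h light exceeded darkness by 1.25 ± 0.14 (2.37-fold, adjusted p = 0.00299) and 3-h light exceeded it by 1.07 (2.10-fold, adjusted p = 0.014), and by 1.44 and 1.26 without the TKO dark array. The difference between 12-h and 3-h light was 0.18 (adjusted p = 0.857), with a 95% interval of -0.15 to 0.50. The call at 3-h light was lost without the WT dark array (0.98, adjusted p = 0.0555) or without the WT (1.02, adjusted p = 0.0992), DKO (1.03, adjusted p = 0.0548) or TKO 3-h light array (1.16, adjusted p = 0.0774). Without the WT or the TKO 3-h light array 0 of all probes were called in this comparison, and 38 without the WT dark array.

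tsc22d3 encodes the glucocorticoid-induced leucine zipper protein, which dampens inflammatory signalling in mammals. Its brightest probe (A_15_P623351) gave 1.28 in darkness, 1.06 with 3-h and 1.47 with 12-h light in TKO larvae. In that order the values were 0.68, 1.07 and 1.59 in DKO larvae, and 0.85, 1.02 and 1.57 in WT larvae. The 3-h light arrays lay within 0.05 of each other, and all 12-h light arrays were above all others, while the TKO dark array was above the other dark arrays. 12-h light exceeded darkness by 0.61 ± 0.14 (1.52-fold, adjusted p = 0.0255), and the 3 probes ranged from 0.57 to 0.61, all called. Without the TKO dark array these differences were 0.77 to 0.79 (adjusted p = 0.00434 to 0.00478). At the brightest probe the call was lost without any 1 of the WT arrays (0.57 to 0.61, adjusted p = 0.052 to 0.0813), the DKO dark array (0.46, adjusted p = 0.065) or the DKO 12-h light array (0.53, adjusted p = 0.114). Between 3-h light and darkness the 3 probes differed by 0.04 to 0.11, with adjusted p-values of 0.576 to 0.869. Between 12-h and 3-h light they differed by 0.49 to 0.54 (adjusted p = 0.268 to 0.338). Of the fits that left out an array, only the one without the TKO dark array called them (0.49 to 0.54, adjusted p = 0.0318 to 0.0413).

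fkbp5, a co-chaperone that lowers the receptor's affinity for hormone and is widely read as a marker of receptor activity, did not follow these genes at 12-h light. At A_15_P365290 the signal was -0.77, -1.19 and -1.77 in TKO larvae, -1.91, -1.36 and -1.48 in DKO larvae and -1.53, -1.57 and -2.27 in WT larvae, in the order darkness, 3-h light and 12-h light. Light arrays were below the dark array in TKO larvae and above it in DKO larvae. The difference between 12-h light and darkness was -0.44 ± 0.25 (adjusted p = 0.225, 95% interval -1.03 to 0.16). The other probe gave 0.07 ± 0.30 (adjusted p = 0.879, 95% interval -0.65 to 0.78), so these pooled values differed in sign and neither was called. Within each genotype both probes had the same sign at 12-h light against darkness. The ratios were -1.0 and -0.52 in TKO, 0.43 and 0.89 in DKO and -0.74 and -0.17 in WT larvae. The pooled values thus describe no single genotype. Without the DKO dark array the brighter probe reached -0.78 (adjusted p = 0.0334). Between 3-h light and darkness limma gave 0.03 (adjusted p = 0.944) at the brighter probe and 0.59 (adjusted p = 0.204) at the other. At that other probe the 3-h light array exceeded the dark array by 0.94 in WT and 1.09 in DKO larvae, with -0.26 in TKO larvae. Without the TKO dark array its difference was 0.95 (adjusted p = 0.0699).

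At the receptor gene nr3c1 the differences were smaller. At A_15_P190681 the signal was -1.32, -0.85 and -0.77 in TKO larvae, -0.96, -0.70 and -0.63 in DKO larvae and -0.66, -0.44 and -0.30 in WT larvae, in the order darkness, 3-h light and 12-h light. The genotypes kept the same order under every lighting, with TKO lowest and WT highest. 12-h light exceeded darkness by 0.41 ± 0.08 at this probe (1.33-fold, adjusted p = 0.0173) and by 0.29 at A_15_P194346 (adjusted p = 0.0488). The third probe, A_15_P644946, gave 0.28 (adjusted p = 0.0736). The first call was lost without the WT (adjusted p = 0.06), DKO (adjusted p = 0.0705) or TKO 12-h light array (adjusted p = 0.0811), at 0.38 to 0.44, and the second in every fit that left out an array.

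hsd11b2 encodes the enzyme that converts cortisol to inactive cortisone. At A_15_P100202 the signal was 0.68, 0.69 and 0.72 in TKO larvae, 0.33, 0.68 and 0.75 in DKO larvae and 0.37, 0.71 and 0.87 in WT larvae, in the order darkness, 3-h light and 12-h light. In DKO and WT larvae the light arrays were above the dark array, and in TKO larvae all 3 arrays were within 0.04. 12-h light exceeded darkness by 0.32 ± 0.11 (adjusted p = 0.0672, 95% interval 0.07 to 0.58) and by 0.29 at the other probe (adjusted p = 0.104). Without the TKO dark array these values were 0.45 (adjusted p = 0.0088) and 0.43 (adjusted p = 0.0136), and both were called. Between 3-h light and darkness the probes differed by 0.24 and 0.19 (adjusted p = 0.163 and 0.264). Those differences were called without the TKO dark array, at 0.36 and 0.33 (adjusted p = 0.0299 and 0.0465). The summed signal of 15 kidney and ionocyte marker genes of the 16 listed, hsd11b2 among them and all well above background, was also higher in light, at 87.1 to 92.0 times the 75th percentile at 12-h light and 85.6 to 89.6 at 3-h light, against 73.8 to 80.0 in darkness. The 73.8 was the TKO dark array. The part of this sum in the result was not tested.

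pomca is made in the pituitary, where its product is cut into corticotropin, and in neurons of the hypothalamus. Its only probe (A_15_P101818) gave 1.15 in darkness, 0.78 with 3-h and 0.48 with 12-h light in TKO larvae. In that order the values were 0.33, 0.52 and 0.05 in DKO larvae, and 0.27, 0.22 and -0.16 in WT larvae. In each genotype 12-h light was the lowest, although the TKO array at 12-h light was above the dark arrays of the other genotypes. The difference between 12-h light and darkness was -0.46 ± 0.11 (adjusted p = 0.0315), and -0.33 without the TKO dark array (adjusted p = 0.0353). The call was lost without any 1 of the WT arrays (adjusted p = 0.0639 to 0.0833), the DKO 12-h light array (adjusted p = 0.104) or the TKO 12-h light array (adjusted p = 0.122), at -0.48 to -0.42. Of 13 pituitary marker genes listed, pomca among them, 10 were measured and 6 were well above background on all arrays (not pomcb, cga, smtla and pou1f1). The summed signal of the 10 was 3.53 to 3.75 at 12-h light, 4.19 to 4.27 at 3-h light and 3.60 to 5.11 in darkness, and its part in the result was not tested. The 5.11 was the TKO dark array, and no DKO or WT array was above 4.27.

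At 19 of the 25 probes all 12-h light arrays were above all dark arrays, against 16.6% of all probes, and these probes belonged to 8 genes, all but fkbp5 and pomca. For nr3c1 and hsd11b2 a single probe of each was among them, and only narrowly. The nr3c1 probe was A_15_P644946, which limma did not call, with a lowest 12-h light signal of -1.82 and a highest dark signal of -1.85. For hsd11b2 (A_15_P100202) these were 0.72 and 0.68. At 17 probes, all 12-h light arrays were above all 3-h light arrays, against 5.63%, and klf9, nr3c1, fkbp5 and pomca had none among them. Both hsd11b2 probes were among them only narrowly. Their lowest 12-h light signals were 0.72 and 0.37, and their highest 3-h light signals 0.71 and 0.36. In limma they differed by 0.08 and 0.10 between these lightings (adjusted p = 0.949 and 0.94).

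Set against the dark array of the same genotype, the single light arrays showed both lengths of exposure in each genotype apart. These are not points of a time course. DKO larvae given 3-h light had returned to darkness before collection, and for WT and TKO larvae the time is not given. At 12-h light, 12 probes were at least 2-fold higher in TKO larvae, 14 in DKO larvae and 14 in WT larvae, and 0 were lower. In TKO larvae the fkbp5 probe A_15_P365290, at -1.0 after rounding, fell just short of 2-fold lower. At 3-h light the numbers were 7, 10 and 9 in the same order of genotypes, and 0 were lower. Of all probes compared, 7.9% in TKO, 2.9% in DKO and 2.29% in WT larvae were at least 2-fold apart in either direction at 12-h light, and 6.23%, 0.825% and 1.31% in the same order at 3-h light. Over the ratios that reached 2-fold at 12-h light, the log2 ratio at 3-h light was also taken as a share of that at 12-h light. This share had a median of 86.9% for klf9 (73.3% to 96.2%, 4 ratios). It was 58.6% for tat (44.0% to 61.8%, 15 ratios), 53.9% for igfbp1b (49.4% to 58.4%, 6 ratios), 51.6% for igfbp1a (38.5% to 54.5%, 9 ratios) and 31.6% for pck1 (26.9% to 52.6%, 6 ratios). These shares are a description over probes and genotypes, and both ratios of a genotype share the dark array.

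**Figure D3:**
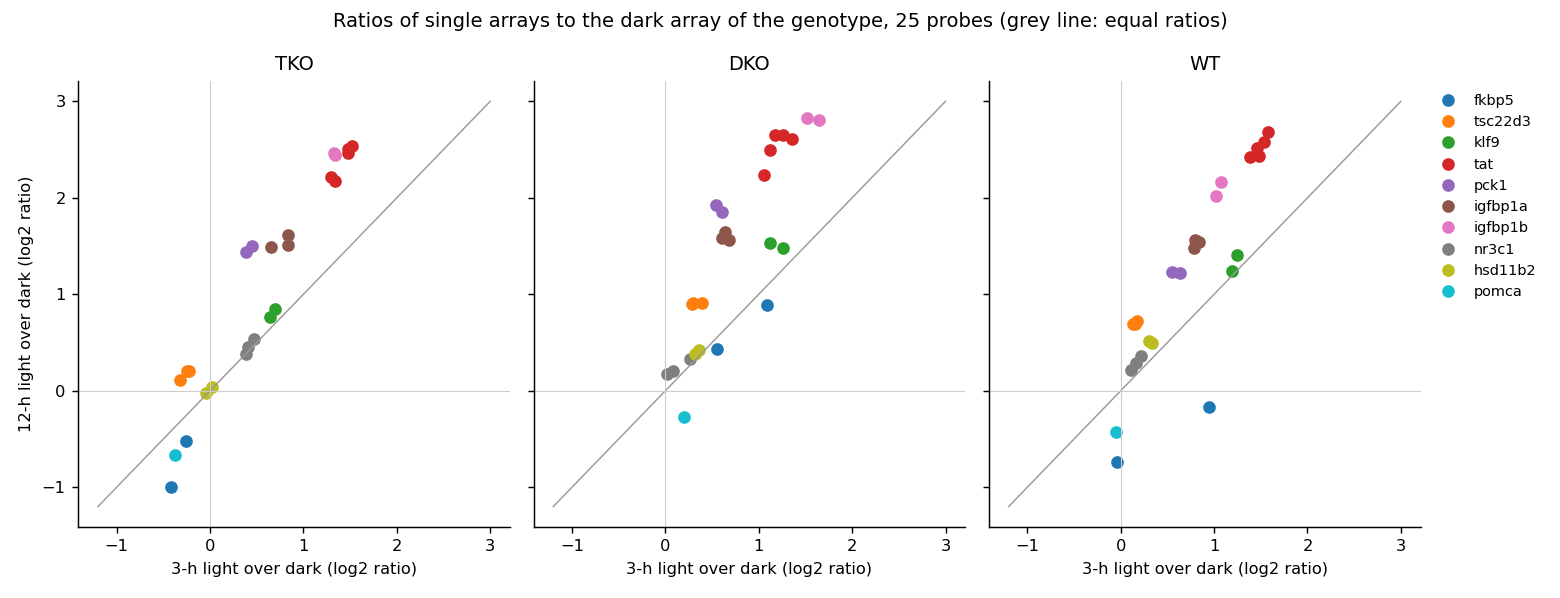
Log2 ratio of the 12-h light array (vertical axis) against that of the 3-h light array (horizontal axis) to the dark array of the genotype, a panel each for TKO, DKO and WT, with 25 probes coloured by gene. Probes of tat, igfbp1a, igfbp1b and pck1 lie above the grey line of equal ratios in all panels and those of klf9 close to it, while fkbp5 changes place between the panels.

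Between genotypes far fewer probes differed. For DKO against WT larvae, limma called 0 of the 25 probes, against 12.9% of all probes. At an unadjusted p under 0.05 there were 4, against 10878 of all 39140 probes. For TKO against WT larvae, 1 probe was higher, against 9.77% of all probes, and 2 were lower, against 14.6%. For TKO against DKO larvae 0 were called, against 1.34% of all probes, with 3 at an unadjusted p under 0.05, against 8151 of all probes. The median difference over the 25 probes was -0.05 for DKO and 0.02 for TKO against WT larvae.

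The lower probes in TKO larvae were those of nr3c1, at -0.51 ± 0.08 (A_15_P190681, adjusted p = 0.00807) and -0.52 ± 0.08 (A_15_P194346, adjusted p = 0.00793), with TKO below WT under all 3 lightings. At the same probes DKO larvae differed from WT larvae by -0.29 (adjusted p = 0.0658) and -0.31 (adjusted p = 0.059). Without the TKO dark array these became -0.44 (adjusted p = 0.00699) and -0.46 (adjusted p = 0.00867) for TKO, and -0.29 (adjusted p = 0.0119) and -0.31 (adjusted p = 0.0146) for DKO, all called. The third nr3c1 probe gave -0.24 for TKO (adjusted p = 0.109) and -0.05 for DKO (adjusted p = 0.793).

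The higher probe was that of pomca, at 0.69 ± 0.11 (1.62-fold, adjusted p = 0.00842) in TKO against WT larvae. TKO exceeded WT by 0.88 in darkness, 0.56 with 3-h and 0.64 with 12-h light. Without the TKO dark array the difference was 0.57 (adjusted p = 0.00859). In DKO larvae it was 0.19 (adjusted p = 0.331, 95% interval -0.08 to 0.46), and the direct difference between TKO and DKO larvae was 0.50 (adjusted p = 0.108). The brighter fkbp5 probe was at 0.55 in TKO against WT larvae (adjusted p = 0.15), and passed the threshold without the DKO dark array (adjusted p = 0.0425).

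For tat, igfbp1a and igfbp1b the genotype differences were smaller than those between 12-h light and darkness. At the 5 tat probes DKO minus WT ran from -0.16 to 0.38 and TKO minus WT from -0.20 to 0.28, with the brightest probe alone above 0. igfbp1a differed by -0.12 to 0.01 in DKO and by -0.20 to 0.02 in TKO larvae, and none of its 95% intervals went beyond -0.41 or 0.21. The brightest igfbp1b probe was at -0.27 in DKO (adjusted p = 0.222) and at -0.42 in TKO larvae (adjusted p = 0.0519). The brightest klf9 probe was at 0.44 in DKO (adjusted p = 0.0861) and 0.39 in TKO larvae (adjusted p = 0.0789), while the other klf9 probe was at 0.13 and 0.02. The brightest klf9 probe was called for DKO without the TKO dark array (0.44, adjusted p = 0.00318), where TKO was at 0.20 (adjusted p = 0.0559).

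**Figure D4:**
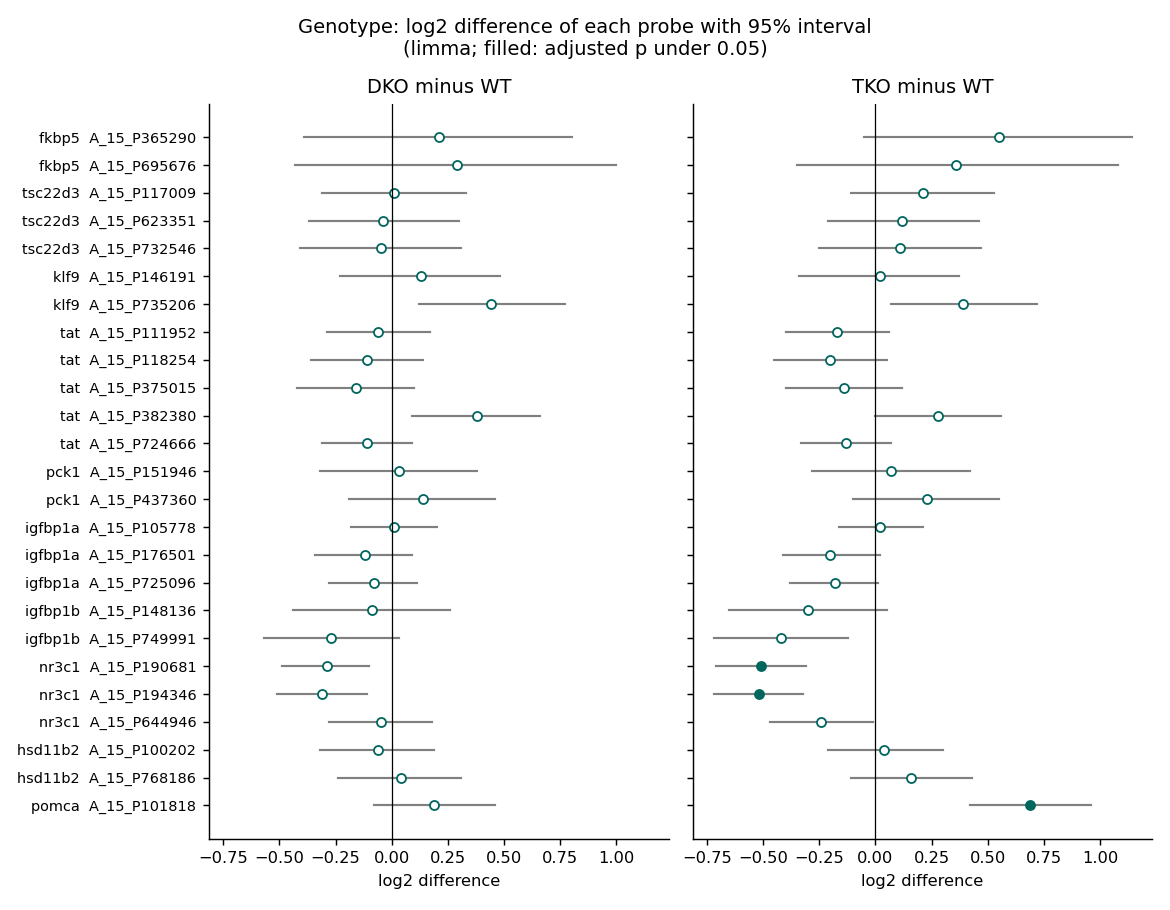
Differences of DKO (left) and TKO larvae (right) from WT larvae in log2 (horizontal axes) for the 25 probes (rows), from limma over 9 arrays, with 95% intervals as bars and filled points where the adjusted p was under 0.05. The filled points are a pair of nr3c1 probes and pomca, all in TKO larvae.

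Whether the response to light differed between genotypes was tested with both light arrays of a genotype as one level. No probe of the 25 was called for DKO against WT larvae, with 0 at an unadjusted p under 0.05, or for TKO against WT larvae, with 3 at an unadjusted p under 0.05. Of all probes, limma also called 0% in both comparisons, with 1281 and 9268 at an unadjusted p under 0.05. The 3 probes were A_15_P735206 of klf9, with a response smaller by 0.55 in TKO larvae (limma, log2 difference -0.55, adjusted p = 0.189), and both of hsd11b2, at -0.39 and -0.44 (adjusted p = 0.208 and 0.205). All TKO responses rest on the TKO dark array, which stood apart. At this klf9 probe its signal was -0.58, against -0.93 in DKO and -1.34 in WT larvae in darkness. The TKO light arrays lay between those of WT and DKO there. This test takes the step between 3-h and 12-h light as spread, and its intervals were wide for the genes with such a step. For tat (A_15_P382380) the 95% interval of the TKO response minus the WT response was -2.74 to 2.46, and for igfbp1b (A_15_P749991) that of DKO was -2.05 to 3.17.

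Lists of related genes, each gene at its brightest probe, placed these genes among others of their pathways. Of all 12915 named genes tested, 13.2% were higher and 12.7% lower at 12-h light than in darkness, with a median of 0.04. Of 23 amino acid breakdown genes 13 were higher and 1 lower, with a median of 0.45. They were led by tat and by arg2, a mitochondrial arginase (1.95 ± 0.10, 3.85-fold, adjusted p = 0.000338), and the lower gene was haao of the kynurenine pathway (-0.43). Of 28 genes of the IGF axis and insulin-responsive genes 16 were higher and 1 lower, with a median of 0.43. They were led by igfbp1b and igfbp1a, and the lower gene was igfbp2a (-0.64 ± 0.07, adjusted p = 0.00327). Without the DKO 12-h light array the higher genes numbered 7 in the first list and 8 in the second, and haao was not called, nor was it without the TKO 12-h light array. Amino acid breakdown had 15 higher and 4 lower genes without the TKO dark array, and the IGF axis again 16 and 1. Here and below, the shares of all named genes are given only for the fit with every array. A change in a list when an array was left out was therefore not set apart from a change over all genes.

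Of 13 muscle proteolysis genes 5 were higher and 0 lower, with a median of 0.45. They included the ubiquitin ligases of muscle wasting trim63a (1.53 ± 0.24, 2.88-fold, adjusted p = 0.00864) and fbxo32 (1.29 ± 0.15, 2.45-fold, adjusted p = 0.00358). Without the DKO 12-h light array 3 were higher and trim63a was at 1.47 (adjusted p = 0.0554), and without the TKO dark array 7 were higher. Of 12 genes of gluconeogenesis and glucose output 5 were higher and 2 lower, with a median of 0.15. g6pc1a.1, a catalytic subunit of the glucose-6-phosphatase that releases free glucose, followed pck1 with 0.93 ± 0.09 (1.90-fold, adjusted p = 0.00236). It gave -0.89, -1.05 and -0.07 in TKO, -1.19, -1.16 and -0.14 in DKO and -1.35, -1.21 and -0.43 in WT larvae, in the order darkness, 3-h light and 12-h light. Its higher values thus also lay with the longer exposure. The lower genes were fbp2 (-0.56, and -0.35 under array weights) and the mitochondrial pck2 (-0.37), which both lost their calls without the WT 3-h, WT 12-h, DKO dark or DKO 12-h light array, and without the WT dark array 3 genes were higher. The counts were 6 higher and 3 lower without the TKO dark array. Of 27 genes of fatty acid oxidation and lipid mobilisation 7 were higher, led by the mitochondrial carriers ucp1 (1.82) and ucp3 (1.14), and 7 lower, led by fabp1b.1 (-1.24) and cpt2 (-0.78), with a median of 0.08. Without the DKO 12-h light array 3 were higher and 2 lower, and fabp1b.1 lost its call there (-1.28, adjusted p = 0.0648) and without the TKO 12-h light array (-1.02, adjusted p = 0.0542). arg2, trim63a, ucp1 and ucp3 also stand in the study's list from the DKO arrays. So do fbxo30b and klhl38b of the muscle proteolysis list and pdk2b of the IGF list. The counts in these lists are therefore not wholly independent of it.

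Of 20 glucocorticoid receptor target genes 6 were higher and 1 lower, with a median of 0.23, and 8 and 1 without the TKO dark array, but the higher genes numbered 2 without the DKO 12-h light array. Beside klf9, the highest was sgk1, a kinase that regulates sodium transport (1.13 ± 0.08, 2.19-fold, adjusted p = 0.00098). sgk1 gave 2.11, 2.37 and 3.27 in TKO, 2.08, 2.23 and 3.23 in DKO and 2.17, 2.43 and 3.25 in WT larvae, in the order darkness, 3-h light and 12-h light, with every 12-h light array above all others. The lower gene was the clock gene per1b (-1.67 ± 0.42, adjusted p = 0.0315), which was at -1.13 without the WT dark array (adjusted p = 0.06) and also lost its call without the WT 3-h, DKO dark, DKO 12-h or TKO 12-h light array. From darkness to 12-h light its signal went from 2.48 to 1.62 in TKO and from 2.36 to 1.39 in DKO larvae. In WT larvae it went from 2.36 to -0.81, so the pooled value describes no single genotype. per1b also stands in a cluster that the study drew from these arrays. Among 12 genes of the receptor and its chaperones, nr3c1 and the mineralocorticoid receptor nr3c2 (0.63 ± 0.08, adjusted p = 0.00491) were higher and the co-chaperone ptges3b was lower (-1.0 ± 0.17, adjusted p = 0.00959), with a median of -0.10. The last call was lost without the DKO 12-h light array (-0.93, adjusted p = 0.06), and without the TKO dark array 2 genes were lower. With normexp and quantile normalization nr3c2 was at 0.25 (adjusted p = 0.0117).

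Upstream of the receptor, 3 of 13 stress axis genes were higher and pomca was lower. The higher genes included pcsk1, a convertase that cuts the pomca product (0.86 ± 0.14, adjusted p = 0.00953), and crhbp, which binds corticotropin-releasing hormone (0.57 ± 0.09, adjusted p = 0.00813). Without the DKO 12-h light array 1 was higher, and crhbp was at 0.51 (adjusted p = 0.0539), while pcsk1 was at 0.41, still called, with normexp and quantile normalization. Of 10 genes of cortisol synthesis and inactivation 0 were higher and 1 was lower, hsd11b1la (-0.58 ± 0.11, adjusted p = 0.0132), a call lost without the DKO (adjusted p = 0.0696) or TKO 12-h light array (adjusted p = 0.0632), and without the TKO dark array 1 was higher and 1 lower. Of 6 interrenal markers measured, of 10 listed, 0 were called. Their summed signal was 10.1 to 11.3 times the 75th percentile over the light arrays, against 8.95 to 10.1 in darkness, and its part in the results was not tested. The 8.95 was the TKO dark array, and no DKO or WT array was below 9.75. On all arrays 5 of the 6 were well above background (not mc2r). Of 8 appetite and leptin genes, the leptin gene lepa was higher (0.96 ± 0.26, adjusted p = 0.0406) and pomca lower, and the call of lepa was lost without any 1 array other than the DKO 12-h light array (0.64 to 1.12 there), and with normexp and quantile normalization (0.34, adjusted p = 0.0512). In this list 2 genes were lower without the TKO dark array.

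**Figure D5:**
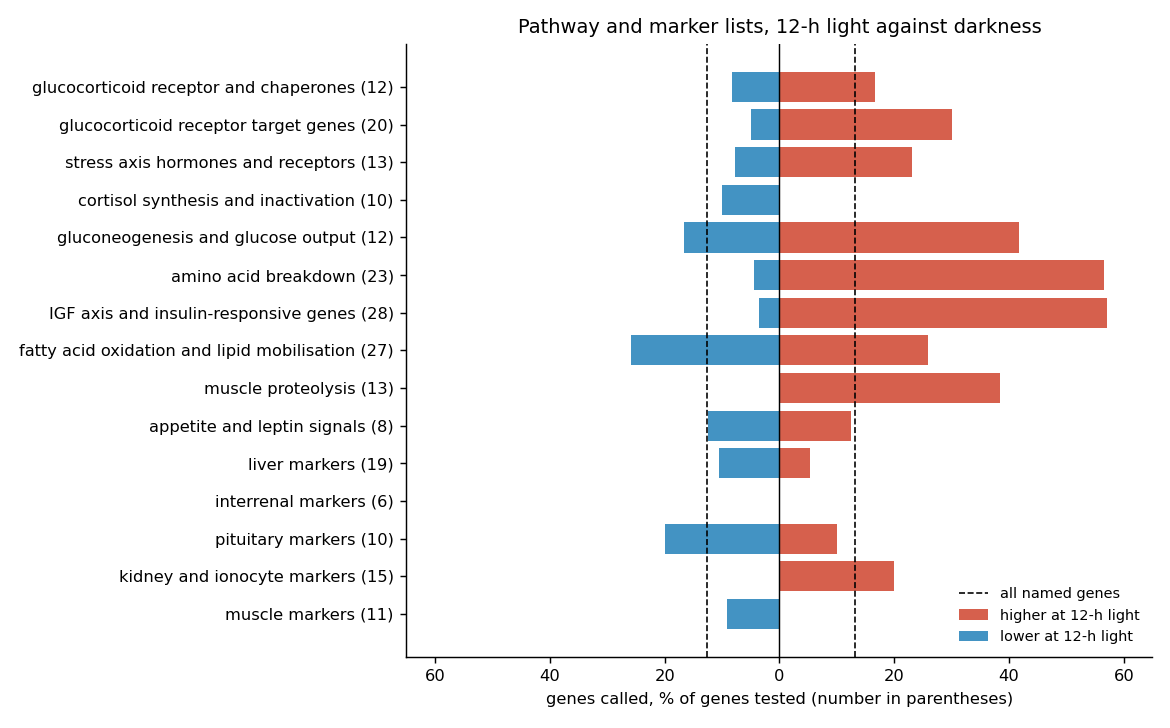
Share of the genes tested in each list that were called higher (right) or lower (left) at 12-h light than in darkness by limma, in percent (horizontal axis), with the number of genes tested in parentheses and the shares over all named genes as dashed lines. The bars for amino acid breakdown and for the IGF axis reach past 50% on the right, against 13.2% of all named genes.

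Markers of the liver, where tat, pck1 and the igfbp1 genes are strongly expressed, moved in both directions. All 19 liver markers measured, of 21 listed, were well above background on all arrays, and 1 was higher and 2 were lower at 12-h light, with a median of -0.14. The calls numbered 3 higher and 4 lower without the TKO dark array, and without the DKO 12-h light array 0 were called either way. Their summed signal was 869 to 937 times the 75th percentile at 12-h light and 841 to 902 at 3-h light, against 893 to 1120 in darkness. The 1120 was the TKO dark array, and no DKO or WT array was above 959. Of 11 muscle markers 0 were higher and 1 was lower, and their summed signal was 2270 to 2620 at 12-h light and 2330 to 2610 at 3-h light, against 2330 to 2390 in darkness. The muscle calls were 1 higher and 1 lower without the TKO dark array.

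Between TKO and WT larvae 2 of the 13 stress axis genes were higher, pomca and crhr2, and 2 lower, pcsk2 (-0.35) and pomcb (-0.97), whose calls were lost without the TKO dark array (-0.28 and -0.71). Between DKO and WT larvae 1 was higher and 0 were lower. Of the 10 genes of cortisol synthesis and inactivation 2 were higher and 1 lower in each knockout. Against the shares of all probes called (12.9% for DKO in either direction, 9.77% higher and 14.6% lower for TKO), nothing in these short lists was read as particular to them. The receptor for urocortins crhr2 was higher than in WT larvae, by 0.83 ± 0.10 in TKO (adjusted p = 0.00235) and by 1.05 ± 0.10 in DKO larvae (2.08-fold, adjusted p = 0.000898). Its signal was -0.24, -0.22 and -0.19 in TKO, -0.11, -0.11 and 0.25 in DKO and -1.11, -1.02 and -1.01 in WT larvae, in the order darkness, 3-h light and 12-h light, so that all knockout arrays were above all WT arrays. cyp11c1, the 11-beta-hydroxylase of the last step to cortisol, was lower, at -0.76 ± 0.11 in TKO (adjusted p = 0.00547) and at -0.95 ± 0.11 in DKO larvae (adjusted p = 0.00227). cyp11a1.1, the side-chain cleavage enzyme of the first step, was higher, by 0.66 ± 0.13 in TKO (adjusted p = 0.0143) and by 0.79 ± 0.13 in DKO larvae (adjusted p = 0.00896). nr3c2, which cortisol also binds, was lower, at -0.64 ± 0.08 in TKO (adjusted p = 0.00363) and at -0.47 ± 0.08 in DKO larvae (adjusted p = 0.0126). It belongs to the list of the receptor and its chaperones. Of the 12 genes there, 0 were higher and 5 lower in TKO larvae, nr3c1 among the lower, and 0 were higher and 1 lower in DKO larvae. That list was not tested as a set. Leaving out 1 array could end the call of cyp11a1.1 (lost for DKO without the DKO 12-h light array, at 0.72, and for TKO without the WT 3-h, WT 12-h, TKO 3-h or TKO 12-h light array, at 0.54 to 0.66) and that of nr3c2 in DKO larvae (lost without the WT or DKO 3-h or 12-h light array, at -0.50 to -0.41). With normexp and quantile normalization cyp11a1.1 was at 0.15 in TKO (adjusted p = 0.0714) and 0.14 in DKO larvae (adjusted p = 0.105), no longer called, while cyp11c1, at -0.42 in TKO and -0.57 in DKO larvae, and nr3c2, at -0.34 in TKO and -0.31 in DKO larvae, were still called. Slide and genotype cannot be told apart for any of these.

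Over the 9 arrays, the pattern of each gene was also set against 12504 other named genes by Pearson's correlation, as a description over arrays that share slides, positions and the response to light. The genes most like tat (A_15_P382380) were vps37a (r = 0.987), casp9 (0.985) and trib3 (0.985). Those most like pck1 (A_15_P151946) were rdh8a (0.993), bdnf (0.983) and ddb2 (0.983). Those most like igfbp1a were dusp6 (0.992), cyp24a1 (0.990) and bnip3la (0.989), and those most like igfbp1b were mfsd12a (0.994), abcg2a (0.991) and arrdc3b (0.991). For klf9 they were upp2 (0.972), ankrd34bb (0.971) and pik3ip1 (0.970), for tsc22d3 rab18b (0.988) and napab (0.985), and for nr3c1 wdtc1 (0.993) and aspa (0.992). For hsd11b2 they were hpdb (0.982) and rnf185 (0.979), and for pomca acbd4 (0.977). The lowest leading value was that of fkbp5, with slc25a4 at 0.932. None of the 10 genes was among the 3 most like another of them.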

How the data were processed

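RNA labelled with Cy3 was read on 9 Agilent arrays with Agilent Feature Extraction (version 11.5.1.1 in the file headers). Per the file headers, the intensity used is the software's signal after background subtraction, not scaled across arrays. Median intensities of spots and of local background, and quality flags of 0 or 1, were deposited beside it. A deposited table holds the same intensities of each array times a constant. The methods of the study name other software for these arrays.

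Deposited intensities were put on a log2 scale and the 75th percentile of each array was subtracted. Irregular spots, 1 to 8 per array, were left out, none was saturated, and spots of a probe were averaged. The SD between spots of a probe was 0.141 (log2, 47 probes), which leaves out variation between larvae. limma 3.58.1 in R 4.3.3 was fitted to 39140 probes, those well above background on 3 or more arrays, with terms for genotype and lighting (4 residual degrees of freedom), or for genotype by light (3), and adjusted by Benjamini-Hochberg over all of them. Since slides hold 1 genotype each, the genotype term also blocks on slide. In ratios of single arrays, a dim probe was set to the array's lowest signal that was well above background. Accessions were matched to symbols with a RefSeq table (GRCz12tu), and the array's own annotation can be older. The number of arrays limits the precision.

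The genes and lists were chosen with earlier results of these data known. Named beside them are, per list, at most 2 genes each way with the largest called change, and the 3 genes most correlated over the arrays at the brightest probe. Fits were tested on simulated data. Alternatives were quantile and median scaling, the deposited table, normexp (offset 50) with quantile normalization, other filters, trend and robust, array weights, thresholds of 1.5-fold and 3-fold and leaving out each array. For the lists and their named genes these were added after seeing the data.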

Additional observations from a re-analysis of the deposited data

Results flagged for a closer look

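At both probes of fkbp5 and at 1 of the 2 probes of hsd11b2, both light arrays moved one way from the dark array in one genotype and both moved the opposite way in another. At fkbp5 (A_15_P365290) the log2 ratios to the dark array at 3-h and 12-h light were -0.42 and -1.0 in TKO, 0.55 and 0.43 in DKO and -0.04 and -0.74 in WT larvae. The mean response of TKO minus that of DKO larvae was -1.2, which was not tested, and DKO minus WT was 0.88, which limma did not call (adjusted p = 1, 95% interval -0.32 to 2.08). The other fkbp5 probe (A_15_P695676) gave -0.26 and -0.52 in TKO and 1.09 and 0.89 in DKO larvae, a mean difference of -1.38 that was not tested. The probes of fkbp5 thus differed in the same direction between TKO and DKO larvae, with the TKO dark array the highest of the dark arrays at both.

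At hsd11b2 (A_15_P768186) the ratios were -0.04 and -0.02 in TKO larvae, within the spot spread of 0.199 for a ratio, and 0.32 and 0.38 in DKO and 0.30 and 0.52 in WT larvae. TKO minus WT was -0.44 (limma, adjusted p = 0.205), and TKO minus DKO was -0.38, which was not tested. The brighter hsd11b2 probe (A_15_P100202) gave 0.02 and 0.04 in TKO larvae, the same sign as in DKO larvae (0.36 and 0.42) and WT larvae (0.34 and 0.50). All ratios of TKO larvae rest on the TKO dark array, which stood apart.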

How the results depend on the processing

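Counts of probes for 12-h light against darkness stayed within 1.5 times of 20 under every alternative (14 to 21 when an array was left out), and the 14 probes of tat, pck1, igfbp1a, igfbp1b and klf9 were called in each of those 9 fits. For 3-h light against darkness the count was 12, with 20 under array weights and 0 to 14 when an array was left out, being 0 without the TKO or the WT 3-h light array and 6 without the WT dark array. The calls over all probes moved alike, from 3290 to 15001 under array weights. They numbered 0 without the TKO or the WT 3-h light array and 38 without the WT dark array. For 12-h against 3-h light it was 11, and 0 to 15 when an array was left out, with at most 1 without any single 3-h or 12-h light array. Over all probes 174 were called in the main fit, and 17 to 31 without any single light array. The differences themselves moved little there: tat (A_15_P382380) kept 1.22 to 1.39 for 3-h light against darkness and 1.01 to 1.26 for 12-h against 3-h light. With an array left out fewer residual degrees of freedom remain. For DKO against WT larvae 0 probes were called, and 1 after quantile or median scaling, 2 after normexp with quantile normalization or with trend and robust, 4 under array weights and 0 to 3 when an array was left out. Over all probes the main fit called 5063. That count was 7163 after normexp, 11683 under array weights and 10922 without the TKO dark array, the fit with 3 of the 25. For TKO against WT larvae 3 were called, 5 under array weights and 3 to 5 when an array was left out, and for TKO against DKO larvae 0, with 1 under array weights and 0 when an array was left out. Over all probes array weights took the calls from 9530 to 17106 for TKO against WT, and from 523 to 1663 for TKO against DKO. The light responses had 0 calls in every fit (0 when an array was left out), and could not be fitted for a genotype without its dark array. Of single ratios, 66 reached 2-fold, and 26 reached 3-fold.

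Genotype differences near 0 changed sign, and the cause was not tested. With the mean over probes, tat went to -0.01 in DKO and -0.07 in TKO larvae and igfbp1a to -0.07 and -0.12. Under array weights tsc22d3 was at -0.02 in TKO, pck1 at -0.06 in DKO and -0.03 in TKO, igfbp1a at -0.0008 in DKO and -0.03 in TKO, and hsd11b2 at -0.04 in TKO. After normexp tsc22d3 was at -0.03 in TKO, pck1 at -0.01 and hsd11b2 at 0.02 in DKO. After quantile normalization igfbp1a was at -0.01 in both, and in the deposited table at -0.002 in DKO and -0.01 in TKO. With an array left out, DKO against WT spanned -0.10 to 0.55 for fkbp5, -0.12 to 0.11 for tsc22d3 (0.005 without the WT 12-h light array), -0.16 to 0.14 for pck1 (-0.14 without the WT 12-h light array), -0.02 to 0.06 for igfbp1a (-0.01 without the WT 12-h light array) and -0.13 to 0.002 for hsd11b2. TKO against WT spanned -0.06 to 0.24 for tsc22d3, -0.09 to 0.18 for pck1, -0.01 to 0.08 for igfbp1a (-0.002 without the WT 12-h light array) and -0.08 to 0.13 for hsd11b2 (-0.03 without the WT dark array). Of 10 genes at the brightest probe, igfbp1b in TKO larvae (-0.42, adjusted p = 0.0519) passed the threshold under 7 alternatives. Every lighting comparison was already made within genotype, by the genotype term, and with 1 array per condition there were no further replicates to pair. Normexp with quantile normalization ended the calls of cyp11a1.1 in both knockouts (0.79 became 0.14 in DKO and 0.66 became 0.15 in TKO larvae).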
